A study of Homo sapiens with 3 samples.

Results

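Glycolytic genes and genes induced by hypoxia were examined in MDA-MB-231, a basal and mesenchymal-like line from a human breast carcinoma, as a list of 39 genes given by symbol, out of 20039 genes that had a probe on the array. The list holds 17 glycolytic enzymes, 9 regulators and transporters of glycolysis, 12 hypoxia targets outside glycolysis, and HIF1A, the oxygen-regulated subunit of hypoxia-inducible factor 1. All probes annotated to these symbols were taken, 66 in total, of which 55 were above background on at least 1 array. The 3 groups compared had 1 sample and 1 array each. In the first, cells received 0.3 µg/ml of ADI-PEG20 over 48 h. The second was cells that received ADI-PEG20 for 24 h and then L-arginine at 420 µg/ml for 24 h, where the label cuts the unit of the ADI-PEG20 dose short after the number 0.3. The last was cells kept untreated for 48 h. ADI-PEG20 is a pegylated arginine deiminase, which removes arginine from the medium by turning it into citrulline, and the series title calls the cells deficient in ASS1, an enzyme of arginine synthesis. All cells grew in DMEM with 10% fetal bovine serum and antibiotics.

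Glycolysis turns glucose into pyruvate in the cytosol, and lactate dehydrogenase turns pyruvate into lactate. Many of its enzymes, and the glucose transporter SLC2A1, are transcribed under the control of hypoxia-inducible factors, which bind DNA as a pair of an alpha subunit (HIF1A or EPAS1) and ARNT. Prolyl hydroxylases of the EGLN family mark the alpha subunit for destruction when oxygen is present, so HIF1A is controlled mostly at the protein level, which an RNA array does not see. Cancer lines often transcribe much of this programme in ordinary air.

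Of the 39 genes, 34 were above background on all 3 arrays, and no gene entered through 1 array alone. PDK1, a kinase that inhibits pyruvate dehydrogenase, and EGLN3, a HIF prolyl hydroxylase, were not above the background limit of 164.2 intensity units on any array, so no fold is given for them. SLC16A1, SLC16A3 and CA9 had no probe listed under their symbols and are not analysed here. The arrays shared 1 distribution of values, with a median intensity near 149.3 and a maximum of 28717, so they hold no measure of the RNA content of a cell, and fewer cells that transcribe a gene cannot be told apart from less of its RNA in each. With 1 array a condition there was no spread between samples and no test, and each difference compares these arrays. The only error available came from the gap between the differences of 2 probes of the same gene. The SD of that gap, divided by the square root of 2 to give the error of 1 probe, is called the probe error. It was 0.22 on the log2 scale for ADI-PEG20 against untreated cells (2522 genes), and it covers probes, not cultures. ASNS, asparagine synthetase, a gene known to respond to amino acid lack, had an intensity of 9722 under ADI-PEG20, 665 after arginine and 664 untreated. Among markers of the line, VIM, CD44, AXL and MSN were above background and SPARC was not, and the 5 summed to an intensity of 27582 under ADI-PEG20, 31805 after arginine and 32643 untreated. Of 6 luminal or epithelial markers, ESR1 and PGR were below background on every array, GATA3 was above it on 1, and EPCAM, CDH1 and KRT18 on all 3. EPCAM had 1484 under ADI-PEG20, 1002 after arginine and 1009 untreated (1.53-fold higher under ADI-PEG20 than untreated), and CDH1 had 374, 293 and 245 (2.04-fold higher). The summed intensity of the 6 was 2503 under ADI-PEG20, 1979 after arginine and 1889 untreated. The part of these shifts in the results was not tested. Of 3 leukocyte markers with a probe CD14 was above background, and PTPRC and CD3E were not; of 2 endothelial markers PECAM1 was above it on 2 arrays, close to the limit, and CDH5 on none.

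**Figure D1:**
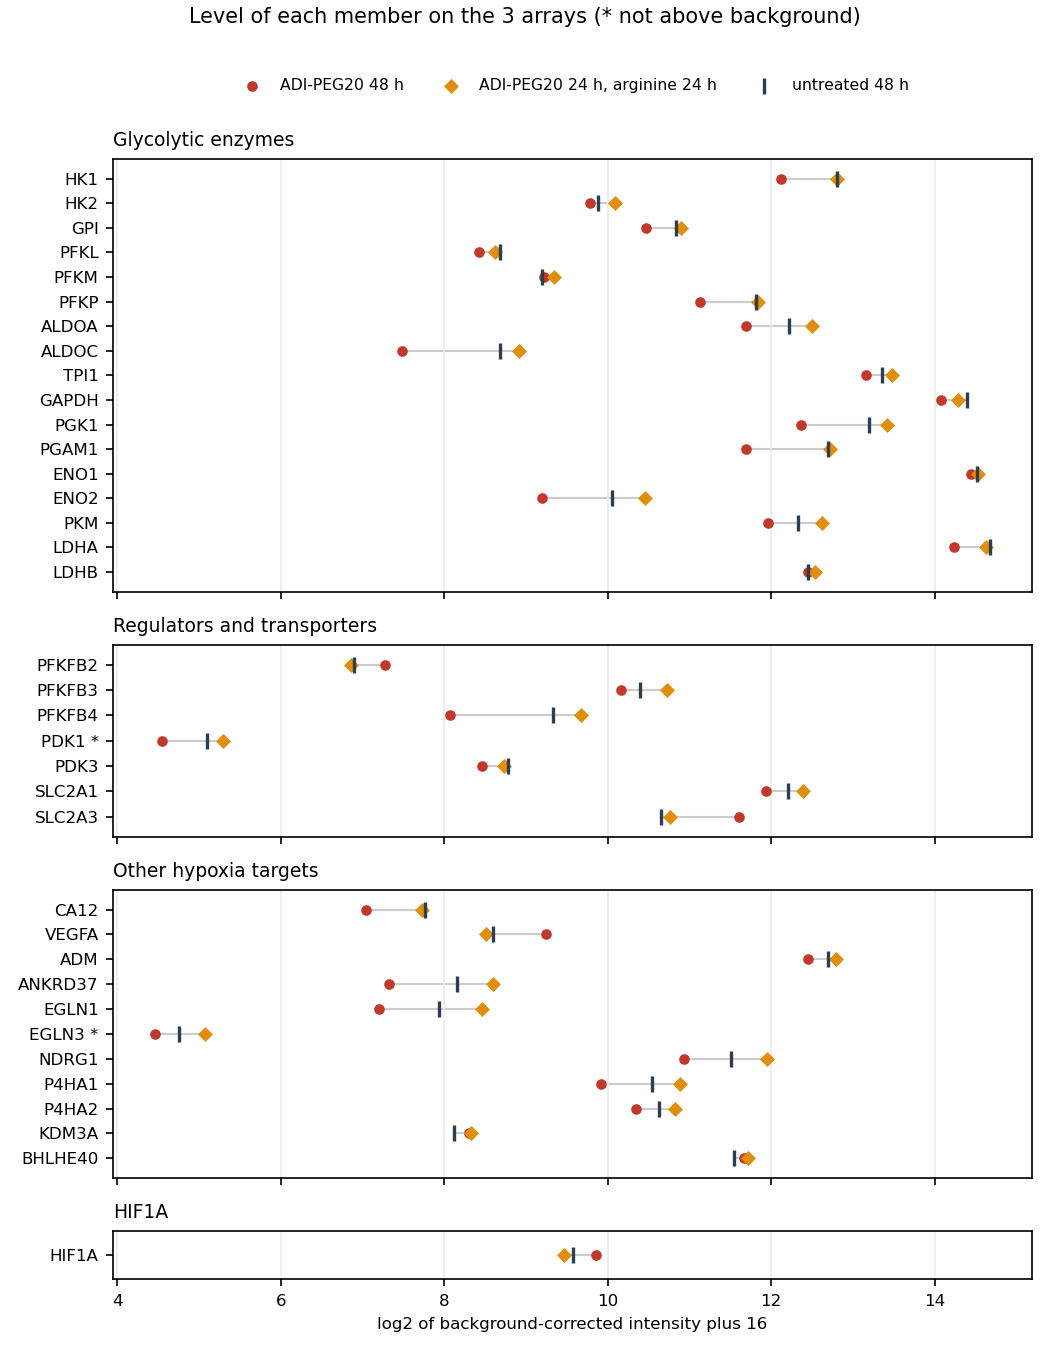
Level of each gene on the 3 arrays, as log2 of background-corrected intensity plus 16 (horizontal axis), with 1 row a gene and 1 point an array; levels of different genes come from different probes and are not to be set against each other. The ADI-PEG20 point lies left of the other 2 for most enzymes, and right of them for SLC2A3, VEGFA, PFKFB2 and HIF1A.

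The first comparison set cells given ADI-PEG20 for 48 h against untreated cells. Glycolytic enzymes were lower as a list under ADI-PEG20, and so were most of the other hypoxia targets, each by a moderate amount. Of the 17 enzymes 15 were lower, 6 of them by 1.5-fold or more and none higher by that much, with a median difference of -0.37 on the log2 scale and a range from -1.20 to 0.03. HK2, ENO1 and TPI1 are among the 15, but lay inside the probe error of 0.22 on the probe that stands for each. Across all 11030 genes that entered, the median was 0.0, 50.3% were below 0 and 9.3% were lower by 1.5-fold or more. The lists were known from earlier results of these data to lie low, so the counts describe the members and are not independent support for their direction.

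The steps up to triose phosphate showed their lowest values at hexokinase 1, the platelet-type phosphofructokinase and aldolase C. HK1, which traps glucose in the cell as glucose 6-phosphate, had an intensity of 4571 under ADI-PEG20, 7285 after arginine and 7285 untreated. The ADI-PEG20 array alone was low, by 0.69 on the log2 scale (1.61-fold), and a second HK1 probe gave -0.80. HK2, the hexokinase that hypoxia-inducible factor is known to induce, had 998 under ADI-PEG20, 1213 after arginine and 1062 untreated. Its difference was -0.10 on this probe and 0.14 on the other, so its direction is not set. GPI, which isomerises glucose 6-phosphate, was at 1536, 2032 and 1939 on the ADI-PEG20, arginine and untreated arrays, a difference of -0.36 for ADI-PEG20 against untreated. Of the phosphofructokinases, which catalyse the committed step, PFKP had 2367 under ADI-PEG20, 3788 after arginine and 3722 untreated, a difference of -0.68. PFKL differed by -0.26 and PFKM by 0.03, so the 3 subunit genes spread from near the median of all genes to 1.6-fold lower. ALDOC, the brain-type aldolase, had 301 under ADI-PEG20, 603 after arginine and 533 untreated. Its difference of -1.20 (2.30-fold lower) was the lowest among the enzymes, and 0.961% of all genes lay lower. Without background correction ALDOC was at -0.83 and PGAM1, at -0.97, was the lowest enzyme. ALDOA, the ubiquitous aldolase, had 3420, 5895 and 4879 on the same 3 arrays, a difference of -0.53, with -0.82 on a second probe.

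In the later steps, the largest differences were those of the kinase PGK1, the mutase PGAM1 and the neuron-type enolase ENO2. PGK1, which carries out the first ATP-making step, had 5431 under ADI-PEG20, 11074 after arginine and 9502 untreated. It was 1.77-fold lower under ADI-PEG20 (-0.82), and -0.68 on its other probe. PGAM1, which moves the phosphate of 3-phosphoglycerate, had 3423 under ADI-PEG20, 6845 after arginine and 6707 untreated, and its 2 probes gave -1.0 and -1.01. ENO2 had 711 under ADI-PEG20, 1531 after arginine and 1185 untreated, a difference of -0.85, while its ubiquitous relative ENO1 had 22395, 23737 and 23555, a difference of -0.07. LDHA, which makes lactate, had 19500 under ADI-PEG20, 25513 after arginine and 26451 untreated, a difference of -0.44 with -0.39 and -0.87 on other probes. LDHB, the form that favours lactate use, had 5720, 6088 and 5708 on the same arrays, a difference of 0.0. PKM, pyruvate kinase, differed by -0.37, with -0.27 and -0.18 on other probes. GAPDH, often taken as a constant standard in expression assays, had 17471 under ADI-PEG20, 20046 after arginine and 21634 untreated, and its 3 probes gave -0.31, -0.43 and -0.37. TPI1, triose phosphate isomerase, gave -0.20 and -0.51.

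Differences were also set out by brightness. Among the members, 4 (TPI1, GAPDH, ENO1 and LDHA) had a mean intensity of 10000 or more, and their median difference was -0.26, against -0.04 over all 202 genes that bright. The 12 members between 2000 and 10000 had a median of -0.45, against -0.02 over 1223 genes. The 12 between 500 and 2000 had -0.28, against 0.0 over 3486 genes, and the 6 below 500 had -0.74, against 0.01 over 6119 genes. Several of these enzymes have processed pseudogenes of nearly the same sequence, and probes of GAPDH, ENO1, LDHA, PGK1, PGAM1, TPI1 and ALDOA may read more than 1 of them.

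**Figure D2:**
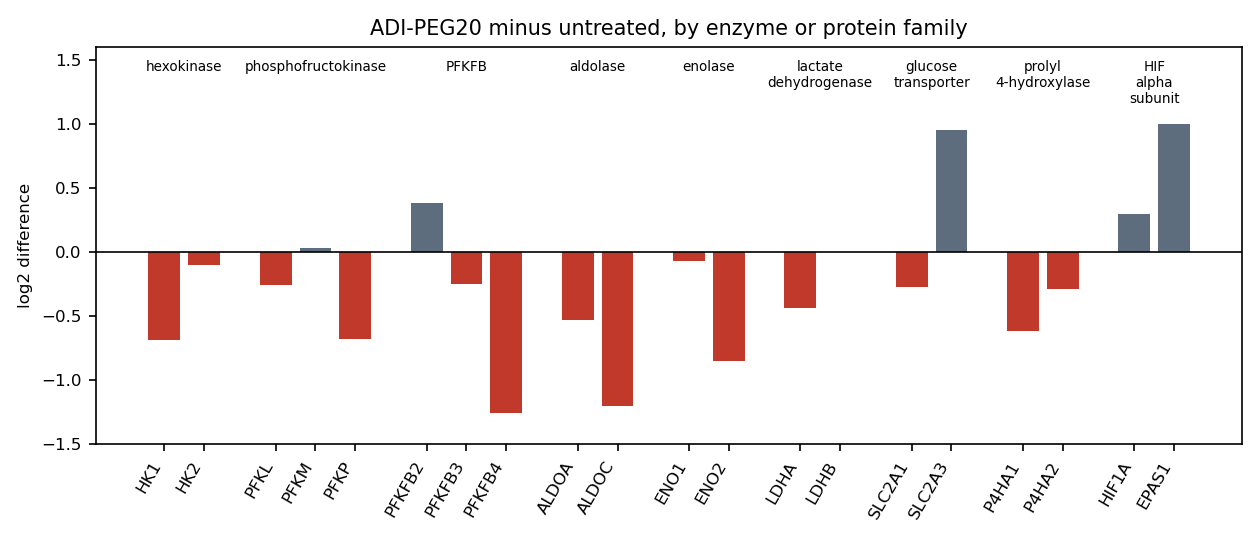
Differences of ADI-PEG20 minus untreated on the log2 scale (bars from 0, 1 bar a gene, no error since each group had 1 array) for genes that share a step or a function, with EPAS1 added from the further HIF pathway genes. Within the aldolase, enolase and phosphofructokinase families ALDOC, ENO2 and PFKP are lowest, at -1.20, -0.85 and -0.68, while ENO1, PFKM and LDHB lie within 0.07 of 0.

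Regulators and transporters of glycolysis did not move as 1 block. Of the 6 that entered, 4 were lower and 2 higher under ADI-PEG20, with a median of -0.26, where 50.3% of all genes were below 0. The PFKFB enzymes set the level of fructose 2,6-bisphosphate, the main activator of phosphofructokinase. PFKFB4 had 390 under ADI-PEG20, 936 after arginine and 766 untreated, and its difference of -1.26 (2.40-fold lower) was the lowest of all members, with 0.698% of all genes lower still. PFKFB4 and ALDOC were the only members lower by 2-fold or more, which 2.14% of all genes were. Without background correction they were at -0.97 and -0.83, and no member was lower by 2-fold. PFKFB3, counted among the 4 lower, had 1263, 1826 and 1475 on the same arrays, and its probes gave -0.25 and 0.20, so its direction is not set. PFKFB2 was in the opposite direction to PFKFB4, with 276 under ADI-PEG20, 238 after arginine and 240 untreated, at 0.38 and 0.42 on its 2 probes above background. PDK3, another kinase of pyruvate dehydrogenase, differed by -0.32 and -0.35 on its probes.

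The glucose transporters SLC2A1 and SLC2A3 lay on opposite sides. SLC2A1, the widely expressed glucose carrier, had 4062 under ADI-PEG20, 5493 after arginine and 4873 untreated, a difference of -0.27. SLC2A3, a high-affinity glucose carrier, had 3233 under ADI-PEG20, 1851 after arginine and 1727 untreated. The ADI-PEG20 array alone was high, by 0.95 (1.94-fold), and 2.05% of all genes lay higher. SLC2A3 was read by 1 probe.

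Hypoxia targets outside glycolysis had a median of -0.43 over the 10 that entered, with 7 lower and 3 higher, where 50.3% of all genes were below 0. Of the 10, 4 were lower by 1.5-fold or more and 1 was higher by that much, where 9.3% of all genes were lower and 7.87% higher. ANKRD37, an ankyrin repeat gene used as a hypoxia marker, had 281 under ADI-PEG20, 509 after arginine and 407 untreated, a difference of -0.84. EGLN1, the main oxygen-sensing HIF prolyl hydroxylase and itself a HIF target, had 269 under ADI-PEG20, 474 after arginine and 368 untreated, a difference of -0.74. CA12, a membrane carbonic anhydrase that handles pH, had 253, 334 and 339 on the same arrays, at -0.73, and its dimmer probe, which was not above background under ADI-PEG20, gave -0.78. On all 3 of these genes the ADI-PEG20 array was the lowest.

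P4HA1, the catalytic subunit of collagen prolyl 4-hydroxylase, had 1089 under ADI-PEG20, 2022 after arginine and 1613 untreated, a difference of -0.62. Its relative P4HA2 differed by -0.29, with -0.24 and -0.63 (1.55-fold) on its other probes, the last of them the dimmest. NDRG1, a stress and differentiation gene, had 2073 under ADI-PEG20, 4068 after arginine and 3035 untreated, a difference of -0.58. ADM, the vasodilator peptide adrenomedullin, had 5730, 7196 and 6727, a difference of -0.24. The histone demethylase gene KDM3A and the repressor gene BHLHE40 were at 0.18 and 0.13, inside the probe error of 0.22. Without background correction ANKRD37 was at -0.53, EGLN1 at -0.45 and CA12 at -0.42, and none of the 10 hypoxia targets was lower by 1.5-fold, against 4 with it, while the enzymes then had a count of 6 and the median of both lists stayed below 0.

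VEGFA, the angiogenic growth factor, was the highest of the hypoxia targets. It had 728 under ADI-PEG20, 486 after arginine and 506 untreated, a difference of 0.66 (1.58-fold higher), and a second probe above background gave 0.76. Without background correction it was at 0.53, under 1.5-fold. HIF1A itself was higher on all 3 of its probes, at 0.30, 0.45 and 0.54. Its brightest probe had 1053 under ADI-PEG20, 828 after arginine and 879 untreated. HIF1A and VEGFA transcripts thus lay above the untreated array while 7 of 10 targets and 15 of 17 enzymes lay below it. Of those enzymes, HK2, ENO1 and TPI1 lay inside the probe error on the probe that stands for each.

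The medians of the enzymes and the other hypoxia targets, -0.37 and -0.43, differed by 0.06, and the 2 ranges overlapped. The SD among genes was 0.36 for enzymes and 0.49 for hypoxia targets. The highest enzyme was PFKM at 0.03, while VEGFA stood at 0.66. No test of one list against another was made with 1 array a group.

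**Figure D3:**
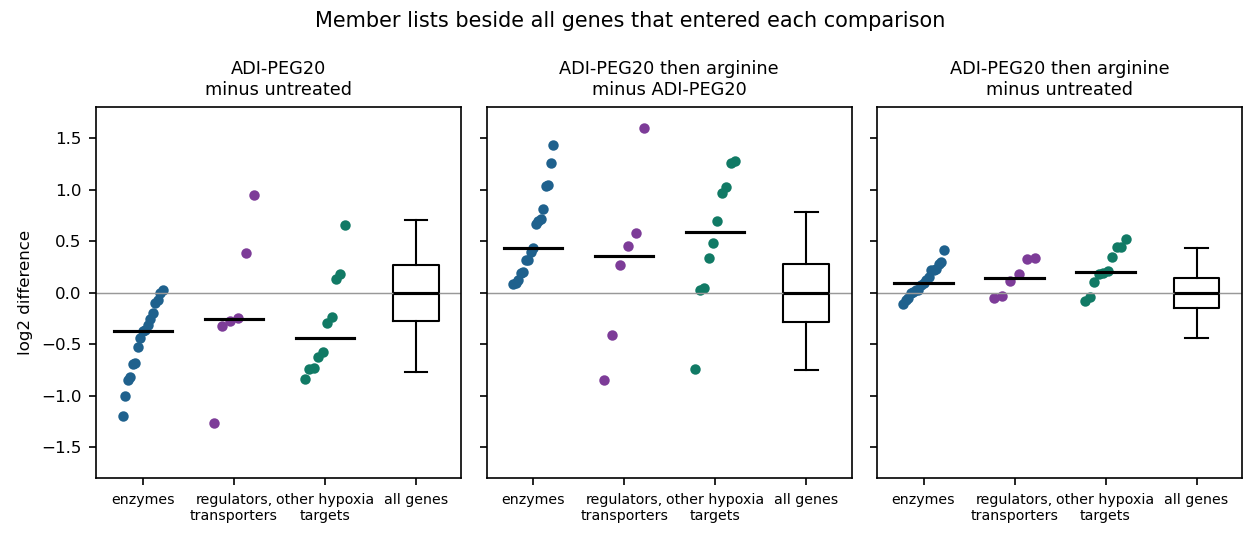
Log2 differences (vertical axis) of the members above background in the 3 comparisons, 1 point a gene, with black bars at the medians; the box shows the quartiles of all genes that entered and its whiskers the 5th and 95th percentiles. Medians of enzymes, regulators and transporters, and other hypoxia targets lie at -0.37, -0.26 and -0.43 in the left panel, 0.43, 0.36 and 0.59 in the middle and 0.09, 0.14 and 0.20 on the right.

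The sequences just upstream of the transcription start are shown for the lowest members of this comparison, 3 from the enzymes and regulators and 2 from the other hypoxia targets, since these genes were lower together. They are RefSeq promoters of build GRCh38.p14, the 250 bases before the annotated start, written 5′ to 3′ on the strand of the gene. They lie at chr3:48556804-48557053 on the minus strand for PFKFB4, chr17:28576896-28577145 on the minus strand for ALDOC, chr10:97427568-97427817 on the plus strand for PGAM1, chr4:185396591-185396840 on the plus strand for ANKRD37 and chr1:231422288-231422537 on the minus strand for EGLN1. Capitals mark ACGTG and GCGTG on either strand, the letters at the core of the hypoxia response element, so that CACGT and CACGC are the same motifs read on the opposite strand. CACGTG, the E-box, holds ACGTG on both strands.
PFKFB4: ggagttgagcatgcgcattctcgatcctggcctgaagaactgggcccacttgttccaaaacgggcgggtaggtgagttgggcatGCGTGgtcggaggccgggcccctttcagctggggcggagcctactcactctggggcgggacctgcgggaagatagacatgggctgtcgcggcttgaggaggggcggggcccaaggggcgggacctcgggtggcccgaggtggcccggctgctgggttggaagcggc
ALDOC: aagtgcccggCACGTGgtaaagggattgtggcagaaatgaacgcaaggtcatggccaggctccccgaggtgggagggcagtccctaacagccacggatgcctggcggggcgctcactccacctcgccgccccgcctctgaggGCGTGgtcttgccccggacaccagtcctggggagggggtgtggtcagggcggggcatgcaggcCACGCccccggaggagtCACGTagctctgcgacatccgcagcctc
PGAM1: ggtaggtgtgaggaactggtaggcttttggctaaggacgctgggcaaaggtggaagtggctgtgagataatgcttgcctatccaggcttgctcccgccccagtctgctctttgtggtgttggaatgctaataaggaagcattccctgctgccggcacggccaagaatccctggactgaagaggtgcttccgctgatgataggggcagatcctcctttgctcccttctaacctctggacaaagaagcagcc
ANKRD37: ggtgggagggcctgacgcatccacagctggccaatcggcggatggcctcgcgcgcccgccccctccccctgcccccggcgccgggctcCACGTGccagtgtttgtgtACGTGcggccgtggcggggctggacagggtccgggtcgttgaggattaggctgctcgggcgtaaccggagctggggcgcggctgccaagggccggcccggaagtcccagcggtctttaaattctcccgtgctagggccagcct
EGLN1: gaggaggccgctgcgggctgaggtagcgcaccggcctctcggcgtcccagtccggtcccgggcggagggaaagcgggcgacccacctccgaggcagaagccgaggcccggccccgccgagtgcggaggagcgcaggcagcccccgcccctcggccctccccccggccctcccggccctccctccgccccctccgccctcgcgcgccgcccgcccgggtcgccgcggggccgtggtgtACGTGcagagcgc

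ALDOC held these letters in 4 places, ANKRD37 in 2, PFKFB4 and EGLN1 in 1 each, and PGAM1 in none of the 250 bases. Over the lists, ACGTG stood in 8 of 17 promoters of the enzymes (47.1%) and in 4 of 8 of the other hypoxia targets that entered and have a promoter in the table (50%), against 24.1% of 8954 promoters of genes tested. For GCGTG the shares were 29.4% of the enzymes and 37.5% of these hypoxia targets, against 45.5% of the tested genes. Either motif was found in 58.8% of the enzymes and 87.5% of these hypoxia targets, against 57.7%. The 8 are CA12, ADM, ANKRD37, EGLN1, P4HA1, P4HA2, KDM3A and BHLHE40. Of the 4 regulators and transporters that entered and have a promoter in the table, 25% held ACGTG, 75% GCGTG and 75% either. The hypoxia targets were listed as genes induced by hypoxia, so their share of these motifs is not independent of that choice. These counts describe letters in a short window and not binding.

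The second comparison set cells that had ADI-PEG20 for 24 h and then arginine for 24 h against cells kept in ADI-PEG20 for 48 h. It shares the ADI-PEG20 array with the comparison above, so an opposite sign is partly built in. Arginine followed 24 h of ADI-PEG20 rather than 48 h, so added arginine and a shorter ADI-PEG20 exposure cannot be told apart. All 17 enzymes were higher after arginine, 8 of them by 1.5-fold or more and 4 by 2-fold or more, with a median of 0.43. Over all 11008 genes, 49.8% were above 0, 9.88% were higher by 1.5-fold or more and 2.07% by 2-fold or more. The highest enzymes were ALDOC at 1.43, ENO2 at 1.26, PGK1 at 1.04 and PGAM1 at 1.03. ENO1 at 0.08, LDHB at 0.09 and PFKM at 0.12 were the closest to 0. These, PFKL at 0.19 and GAPDH at 0.20 lay inside the probe error of this comparison, 0.22, on the probe that stands for each.

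Among regulators and transporters, PFKFB4 was 3.03-fold higher after arginine than in continued ADI-PEG20 (1.6), and 0.2% of all genes lay higher. PFKFB3 differed by 0.58 and 0.44 on its probes and SLC2A1 by 0.45. SLC2A3, at -0.85, and PFKFB2, at -0.41, were lower after arginine. SLC2A3 and VEGFA were the 2 members lower by 1.5-fold or more, which 8.83% of all genes were. Of the 10 other hypoxia targets 9 were higher, 5 of them by 1.5-fold or more and 3 by 2-fold or more, with a median of 0.59. KDM3A at 0.03 and BHLHE40 at 0.05 are among the 9, but lay inside the probe error of 0.22. Of all genes 49.8% were higher, 9.88% by 1.5-fold or more and 2.07% by 2-fold or more. ANKRD37 was at 1.28, EGLN1 at 1.26, NDRG1 at 1.02 and P4HA1 at 0.97. Without background correction ANKRD37 was at 0.86, EGLN1 at 0.82 and NDRG1 at 0.97, so none of these 3 then reached 2-fold. VEGFA, at -0.74 and -0.83, was lower (-0.58 without background correction, under 1.5-fold), and HIF1A was lower on each of its 3 probes, at -0.40, -0.69 and -0.99. The medians of the enzymes and the hypoxia targets differed by 0.16, and no test of that difference was made.

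**Figure D4:**
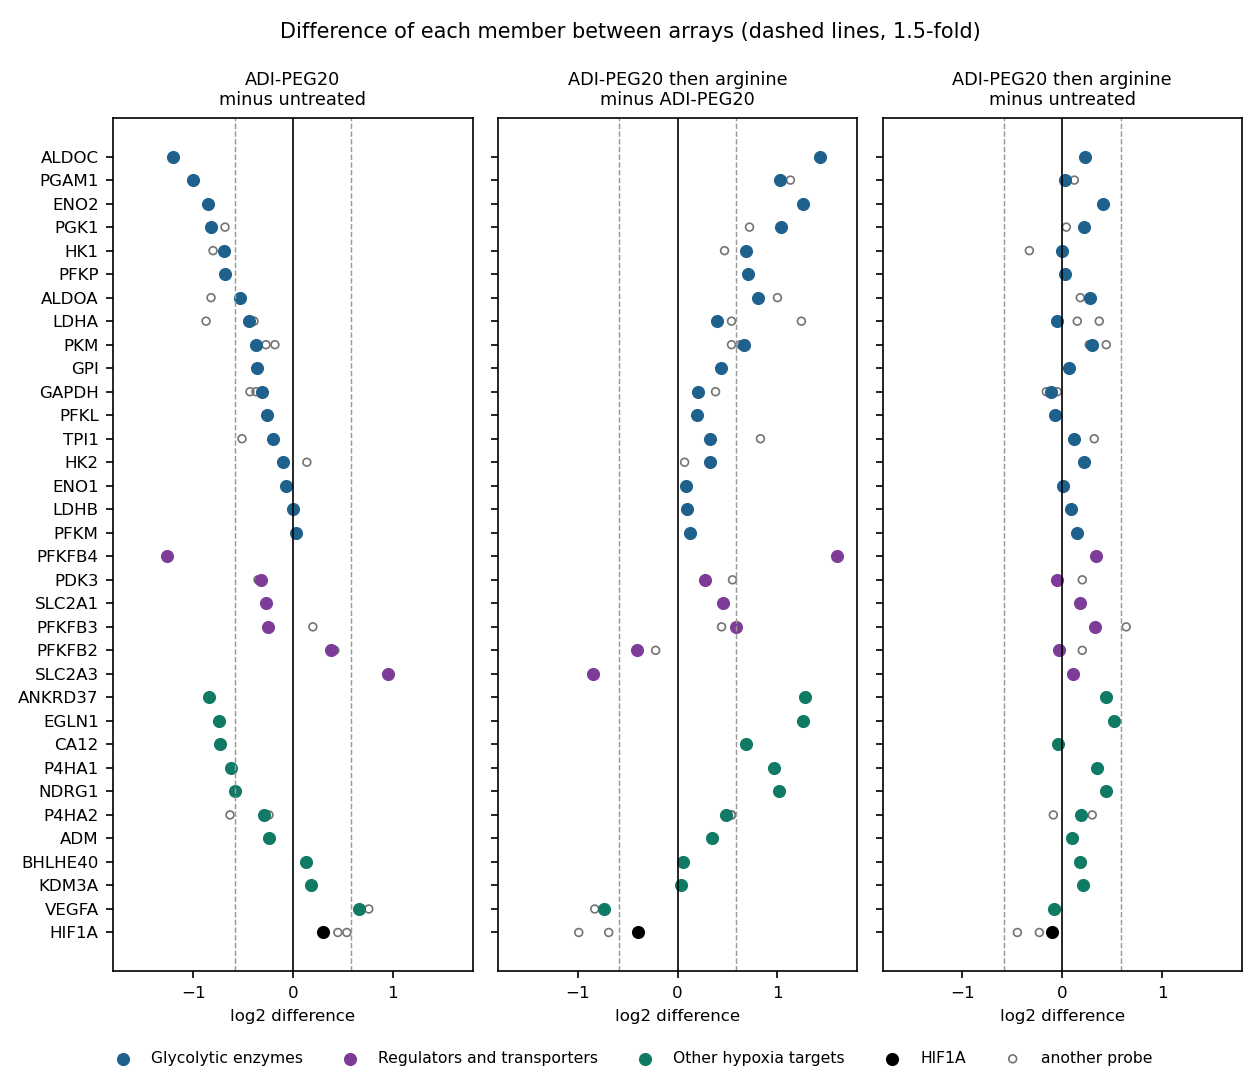
Log2 difference of each of the 34 members above background (filled points, coloured by list) in the 3 comparisons, with other probes of the same gene that were above background on all 3 arrays as open circles and dashed lines at 1.5-fold. Every enzyme lies right of 0 in the middle panel, and no filled point passes 1.5-fold in the right panel, where EGLN1 is highest at 0.52.

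The third comparison set cells given arginine after ADI-PEG20 against untreated cells. The series holds no array after 24 h of ADI-PEG20 alone. A return from an earlier difference therefore cannot be told apart from a difference that had not arisen by 24 h. On the probe that stands for each gene, no member differed from the untreated array by 1.5-fold or more, where 2.51% of 10965 genes were higher and 2.58% lower by that much. The dimmer PFKFB3 probe was at 0.64 (1.56-fold), with 402 after arginine and 301 untreated. Small differences above 0 were nevertheless the more common ones. Of the 17 enzymes 13 lay above the untreated value, with a median of 0.09, and of the 10 hypoxia targets 8 did, with a median of 0.20, while the median of all genes was -0.01 and 48.5% lay above 0. Several of those counted lay inside the probe error of this comparison, 0.19, so their direction is not set. Among the enzymes they were GPI, PFKM, PFKP, TPI1, PGAM1, ENO1 and LDHB. Among the hypoxia targets they were ADM and BHLHE40, with P4HA2 at its edge. HK1 had the same intensity on both arrays on its brighter probe, and its other probe above background gave -0.33. EGLN1 was at 0.52, ANKRD37 at 0.44, NDRG1 at 0.44, ENO2 at 0.41, P4HA1 at 0.35, PFKFB4 at 0.34 and PFKFB3 at 0.33. For EGLN1, 3.33% of all genes lay higher and for ENO2 5.65%.

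Values of the 3 arrays are set side by side here, since the comparisons share arrays. ENO2, ANKRD37, EGLN1, NDRG1, P4HA1 and PFKFB4 had their lowest intensity on the ADI-PEG20 array and their highest on the arginine array. ALDOC, PGK1, PGAM1 and PFKP also had this order. For PGAM1 and PFKP the arginine and untreated arrays differed by 0.03, inside the probe error of 0.19, so which was highest is not set. The share of all genes with this order was not counted. PGAM1, PFKP and CA12, which were lower by 1.5-fold or more under ADI-PEG20, lay at 0.03, 0.03 and -0.04 after arginine against untreated. SLC2A3 and VEGFA lay at 0.11 and -0.08. GAPDH lay below its untreated value after arginine on each of its 3 probes, at -0.11, -0.05 and -0.16, all within the probe error of 0.19. The first comparison used the same untreated array.

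Genes of the same pathways outside the 39 were set beside them. Of 39 further glycolysis and pyruvate genes, 28 entered the first comparison, with a median of -0.20, and 5 were lower and 1 higher by 1.5-fold or more, where 9.3% of all genes were lower and 7.87% higher. Of the 28, 24 were above background on both arrays. The 1 higher gene, PDK4 (0.84), was above it under ADI-PEG20 and not untreated. SLC16A7 (-0.67), among the 5 lower, was above it untreated and not under ADI-PEG20. MPC2, a subunit of the mitochondrial pyruvate carrier, was at -0.72, the sugar transporter genes SLC2A12 and SLC2A6 at -0.70 and -0.50, the gluconeogenic phosphatase gene FBP1 at -0.65 and the phosphoglucomutase gene PGM2 at -0.62. After arginine MPC2 was at 0.77 against ADI-PEG20, SLC2A6 at 0.72, BPGM at 0.58, PGM1 at 0.52 and FBP1 at 0.48. Against untreated cells the largest after arginine, counting genes that both arrays placed above background, were PDK2 at -0.38, PGM1 at 0.32, PGM2 at -0.28, GPD2 at -0.26 and SLC2A12 at -0.25.

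Of 40 further HIF pathway genes, 31 entered the first comparison, with a median of -0.21, and 4 were lower and 3 higher by 1.5-fold or more, beside the same 9.3% and 7.87% of all genes. Of the 31, 29 were above background on both arrays. Among the 4 lower, ARNT (-0.87) and GYS1 (-0.66) were not above it under ADI-PEG20 and entered through the untreated array. The 3 higher genes were above it on both. EPAS1, the second HIF alpha subunit, had 2280 under ADI-PEG20, 1164 after arginine and 1200 untreated, a difference of 1.0, in the same direction as HIF1A. MXI1, a MAX-binding repressor, was at 0.97 and DDIT4, an inhibitor of mTORC1 also known from other stresses, at 0.79. BNIP3 and BNIP3L, mitophagy receptors, were at -0.96 and -0.61. After arginine BNIP3 was at 1.33 against continued ADI-PEG20, AK4 at 0.87, GBE1 at 0.81, EPAS1 at -1.05 and MXI1 at -1.15. Against untreated cells the largest, counting genes that both arrays placed above background, were FAM162A at 0.54, HILPDA at 0.43, INSIG2 at 0.42, TMEM45A at 0.40 and PLOD2 at 0.39, all higher after arginine. ARNT, the partner of the HIF alpha subunits, was at -0.69 and above background on the untreated array alone, with 156 under ADI-PEG20, 160 after arginine and 184 untreated.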

How the data were processed

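Biotin-labelled cRNA from total RNA of each of the 3 samples was read on Illumina bead arrays of 1 colour, 1 array a sample, per the labels' protocols. The authors deposited linear intensity values of 47231 probes. The submitters' processing notes name GenomeStudio, and how values were normalized or corrected for background is not given in the sources. Equal medians, minima of 105.8 and maxima of 28717 show a shared distribution.

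A table of values before normalization was not used, because its 6 columns of per-sample values match no single sample's labels. Background was corrected by normexp with the mode of all intensities (137.37), the SD below the mode (8.95) and an exponential mean of 424.5, and log2 was taken after adding 16. A probe above the mode by 3 SDs was above background, 37.6% of probes on each array. Symbols came from the platform annotation (30113 probes with 1 gene, 8 with several, which were left unnamed), updated through RefSeq for 11 probes. A gene was read from its probe with the highest mean and entered a comparison if above background on either array. The steps were tested on simulated data, with Python 3.11.15, numpy 2.4.6, pandas 2.3.3 and scipy 1.17.1. The members and lists were chosen with earlier results of these data known. All members are named; of the further lists, the 5 genes that differed most, of those above background on both arrays. The number of arrays limits the precision. Alternatives were the background correction, offset, probe choice, filter, background limit, bounds and centring.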

Additional observations from a re-analysis of the deposited data

How the results depend on the processing

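Medians of the 3 lists in the 3 comparisons were recomputed under 8 alternatives: no background correction, an offset of 50, the mean over probes, genes above background on both arrays, no filter on dim probes, a background limit of 2 SDs, dim genes at their bound, and arrays centred on their median. The both-arrays filter and the bound could not change any member, since the 34 that entered were above background on all 3 arrays. Centring could change little, since the array medians were already nearly equal. Agreement under these settings was thus largely fixed in advance, for medians, counts and single genes alike. None of the 72 recomputed medians changed sign, and 1 moved by over 1.5 times: with the mean over probes, the median of regulators and transporters for ADI-PEG20 minus untreated was -0.15, against -0.26 as reported. For ADI-PEG20 minus untreated the enzyme median ranged from -0.37 to -0.36 and that of the hypoxia targets from -0.48 to -0.29. For arginine minus ADI-PEG20 they ranged from 0.40 to 0.58 and from 0.42 to 0.67. Of 48 recomputed counts past 1.5-fold, 45 stayed within 1.5 times the reported one. Without background correction the count of lower hypoxia targets was 0 against 4 as reported. The count of regulators and transporters higher after arginine than under ADI-PEG20 was 2 without a filter and 2 with the limit of 2 SDs, against 1, since a dim gene then entered. Of 816 values of single genes, 15 moved by more than the probe error and 7 changed sign, and none of those 7 was past 1.5-fold as reported. No paired analysis was possible because each condition had 1 array. Signal near background limits PDK1, EGLN3 and the sizes given for dim genes.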
